A study of Mus musculus with 4 samples.

Results

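Thick ascending limb cells of kidneys taken 30 days after ischemia were compared with those taken 2 days after it, in mice whose clusterin gene (Clu) is followed by a fluorescent reporter. The members were chosen by a rule on measured values: barcodes with at least 500 UMIs (unique molecular identifiers, each 1 captured transcript), at least 300 genes and at most 50% mitochondrially encoded UMIs, and, per 10000 UMIs, at least 3 of Slc12a1, under 5 each of Slc12a3 and Aqp2, and under 20 of Tyrobp, Fcer1g and Ctss together. It left 474 cells at day 30 and 595 at day 2, 1069 of the 15934 kept cells of these libraries and of 27230 barcodes in the series. Both groups carried the BAC-CluGFP transgene, in which the Clu regulatory region on an artificial chromosome drives green fluorescent protein, and both had 35 min of ischemia followed by reperfusion. Kidneys were digested with enzymes, GFP-positive cells were sorted, and droplet libraries of the 3′ ends of transcripts were made, 1 library per time. An untreated library and a day 7 library of the same reporter mice gave levels at other times. The sources used here give neither the age, sex and strain background of the mice nor the number pooled in a library.

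The thick ascending limb is the segment of the nephron that reabsorbs salt without water. The cotransporter NKCC2 (Slc12a1) takes up sodium, potassium and chloride at the luminal side, the channel ROMK (Kcnj1) returns potassium to the lumen, and claudins between the cells let sodium, calcium and magnesium pass. The segment also secretes uromodulin (Umod) and is the main renal source of epidermal growth factor (Egf). It lies partly in the outer medulla, where oxygen is scarce, and after ischemia its cells are known to switch on secreted injury proteins such as osteopontin (Spp1), clusterin and lipocalin 2.

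Every gene named here is given as its UMIs per 1000000 (CPM) in the summed cells of a library. The cells held 5380457 UMIs at day 30 and 9086846 at day 2, with medians of 9422 and 13730 UMIs a cell and 6.19% and 7.49% mitochondrially encoded UMIs. Each time had 1 library, so there was no replicate error to test against and no p-value could be given. Calls of higher or lower needed a CPM ratio of at least 2-fold in that direction and an exact 95% interval, from the Poisson counts, that did not hold 1. The intervals stand for counting error alone and hold nothing of the variation between mice, sorts or captures. No barcode was shared between the gated cells of the 2 libraries, and 20 were shared between the libraries as a whole.

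Of 6179 genes with a mean of at least 20 CPM, 413 were higher at day 30 (6.68% of those measured) and 106 were lower (1.72%). Every count of called list or marker members below is to be read beside these shares. Counts near them are not read as results about a list. The median log2 ratio over all measured genes was 0.21. Spp1 alone held 1.18% of the cells' UMIs at day 30 and 8.03% at day 2, and what one transcript takes from a total the others lose. When the levels were scaled so that the median ratio was 1, 194 genes were higher and 161 lower, so higher genes made up 54.6% of the calls instead of 79.6%. List medians are therefore set beside 0.21, and several genes near 2-fold are given with their median-scaled ratio. Myeloid cells, defined by at least 20 UMIs of the immune trio and under 3 of Slc12a1, made up 37.4% of kept cells at day 30 and 67.5% at day 2, and their RNA can reach other droplets. A gene is therefore also set against its level in those cells: 172 of the higher genes (2.78% of those measured) and 50 of the lower genes (0.809%) were at least 2-fold above the myeloid cells of the library in which they were higher.

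The label was checked against the segment's markers. Umod had 3828 CPM at day 30 and 6850.3 CPM at day 2 in the gated cells, against 62.4 and 74.2 CPM in the myeloid cells and 60.7 and 135 CPM in principal cells (at least 5 Aqp2 UMIs per 10000). All 15 segment markers were detected in both libraries. Kcnt1, a sodium-activated potassium channel gene, was the lowest of them, at 0.929 CPM at day 30 and 0.55 CPM at day 2. Cells just inside the threshold, with 3 to 5 Slc12a1 UMIs per 10000, numbered 70 at day 30 and 77 at day 2 and had 778 and 5380.4 CPM of Umod. Cells just outside it, with 1 to 3, numbered 429 and 139 and had 345 and 2721 CPM. At day 30 the edge of the gate therefore lay among cells with little Umod, which was less so at day 2. With the threshold at 10, 327 cells at day 30 and 381 at day 2 remained.

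Among the genes that make the segment what it is, few salt transport genes passed the rule, while Egf and some junction genes did. Slc12a1, which chose the cells and is given as a description, had 2958 CPM at day 30 and 1897 CPM at day 2. Kcnj1 had 206 CPM at day 30 and 125 CPM at day 2, and barttin (Bsnd), a chloride channel subunit, had 26.9 and 20.2 CPM. Neither passed the rule. Of 16 measured members of the ion transport list 1 was higher, Egf, and 1 was lower, Fxyd2 (1 higher and 4 lower under median scaling). The list median log2 ratio was 0.10. Egf encodes a growth factor and not a transporter, so no transport gene of the list was called higher. Fxyd2, the gamma subunit that tunes the sodium pump, had 3346 CPM at day 30 and 7701 CPM at day 2 (ratio 0.434, 95% interval 0.427 to 0.442). The pump's beta subunit gene Atp1b1 had 2161 CPM at day 30 against 2462 CPM at day 2.

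Umod and Egf, the secreted products by which the segment is best known, did not move together. On build GRCm38, Umod lies at chr7:119462711-119479282 on the minus strand and Egf at chr3:129677565-129755316, also on the minus strand. Umod's ratio was 0.559 (0.55 to 0.568), short of 2-fold. It was 0.469 and past the rule under median scaling. With the Slc12a1 threshold at 10 per 10000 the difference was smaller, at 4985 CPM of Umod at day 30 and 7450.1 CPM at day 2. At the threshold of 3 the median of Umod per cell was 24.3 UMIs per 10000 at day 30 and 58.1 at day 2. Egf had 446 CPM at day 30 and 113 CPM at day 2 (ratio 3.95, 3.67 to 4.26). Yet the share of cells with an Egf UMI, after every cell was thinned to 3000 UMIs, was 17.3% at day 30 (exact binomial interval 14.0 to 21.0) and 22.2% at day 2 (18.9 to 25.7). Unthinned, the shares were 27.6% and 50.3%, and among myeloid cells they were 1.93% and 0.66% after thinning. The higher sum at day 30 thus came with no larger share of positive cells. The cells at the 90th percentile had 8.67 Egf UMIs per 10000 at day 30 and 2.67 at day 2, the highest cell had 182 and 41.7, and 5 cells gave 23% of the Egf UMIs at day 30 and 15.8% at day 2.

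**Figure D1:**
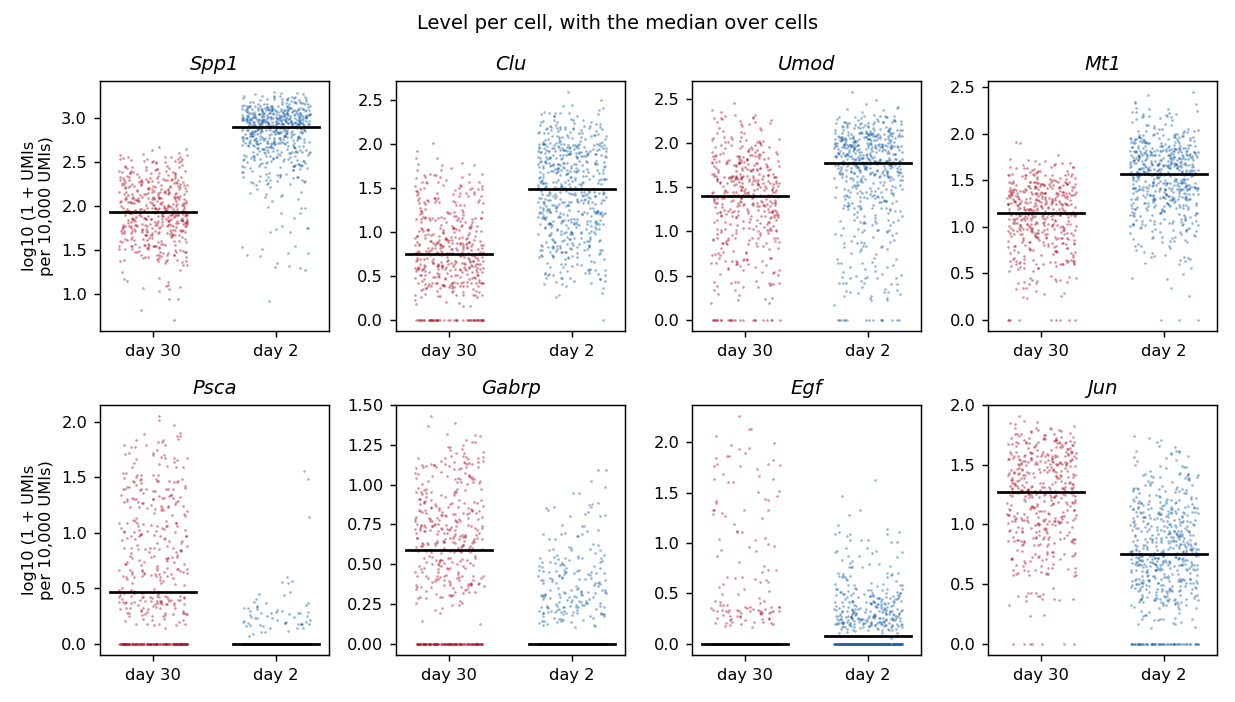
UMIs per 10000 in each gated cell on a log10 (1 + x) scale, for 8 genes, with day 30 left of day 2; each point is a cell and the black bar is the median over cells. Spp1, Clu, Umod and Mt1 have lower medians at day 30, Psca, Gabrp and Jun higher ones, and Egf at day 30 is at 0 in most cells with a tail that reaches 182.

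Claudins differ along the segment: Cldn10 marks sodium-permeable junctions and Cldn16 with Cldn19 marks those that pass calcium and magnesium. Of 17 measured paracellular and divalent cation genes, 4 were higher and 1 was lower (2 and 1 under median scaling; list median 0.40). Cldn10 had 747 CPM at day 30 and 353 CPM at day 2 (ratio 2.12, median-scaled 1.78), whereas Cldn16 had 79.4 and 127 CPM and Cldn19 135 and 204 CPM, neither past the rule. Cldn3 (359.8 and 163 CPM) and Cldn4 (78.4 and 28.1 CPM), claudins also found in the collecting duct, were higher, with median-scaled ratios of 1.86 and 2.35. Trpm6, a magnesium channel known from the distal convoluted tubule, was higher at 52.6 CPM at day 30 against 5.5 CPM at day 2.

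Cells in which Cldn10 outnumbered Cldn16 and Cldn19 together were 71.1% of the gate at day 30 (66.8 to 75.1) and 45.5% at day 2 (41.5 to 49.6). Those with the opposite order numbered 76 and 273. The leading changes were present within each kind of cell. Spp1 had a ratio of 0.152 in the Cldn10 cells and 0.131 in the Cldn16 and Cldn19 cells, Clu 0.213 and 0.146, Psca 44.1 and 26.6, and Gabrp 6.65 and 4.33. Egf differed more between the kinds of cell, with a ratio of 2.01 (1.81 to 2.22) in the Cldn10 cells and 13 (11.6 to 14.6) in the others. Cldn10 itself, on which the kinds were defined, had ratios of 1.46 and 1.20.

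The receptor for parathyroid hormone fell. Pth1r had 108 CPM at day 30 and 662 CPM at day 2 (ratio 0.164, 0.15 to 0.178), and after thinning 25.1% and 69.1% of cells held a UMI, against 2.5% and 3.36% of myeloid cells. Prostaglandin receptor Ptger3 (80.1 and 80.3 CPM) and the calcium-sensing receptor Casr (31.4 and 39.9 CPM) did not pass the rule. Below the 20 CPM mean, and so outside the calls, were Cldn14, a claudin that is known to block cation passage downstream of Casr, with 3 UMIs at day 30 and 206 at day 2, and the macula densa gene Nos1, with 7 and 314 UMIs. Nos1 marks the macula densa, a plaque of cells in the wall of this segment, and fewer such cells and less RNA per cell cannot be told apart. Ptgs2, a prostaglandin synthase gene that is also used as a macula densa marker, was lower, at 3.53 CPM at day 30 and 111 CPM at day 2, but myeloid cells had 18.8 and 889 CPM. Of 15 measured transcription factors of segment identity 2 were higher, Pax8 (191 and 75.5 CPM) and Ppargc1a (156 and 70.1 CPM, median-scaled ratio 1.88). The other 13, among them Irx1, Irx2, Tfap2b and Tfcp2l1, did not pass, and the list median was -0.05.

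Spp1, Clu and Lcn2, secreted proteins of acute tubular injury, fell. Spp1 (GRCm38 chr5:104435118-104441050, plus strand) had 63587 UMIs at day 30 and 729614 at day 2, which is 11818 CPM against 80293 CPM (ratio 0.147, 0.146 to 0.148). The median cell had 86.0 UMIs per 10000 at day 30 and 803 at day 2. The distributions overlapped only in part: the 90th percentile of the day 30 cells, 239, was near the 10th percentile of the day 2 cells, 235. Clu, the gene behind the reporter, had 978 CPM at day 30 and 5257 CPM at day 2 (ratio 0.186, 0.181 to 0.191). All cells had been sorted on that reporter, so a low Clu level at day 30 was measured among cells that carried GFP. Lcn2, a siderophore-binding injury protein, had 555 and 1427 CPM (ratio 0.389).

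Secreted defence peptides and a calcium buffer fell further. Defb1, a beta-defensin of the distal nephron, had 333 CPM at day 30 and 2977 CPM at day 2 (ratio 0.112, 0.106 to 0.117). S100g, the calcium-binding protein calbindin-D9k, had 89.2 and 1199.5 CPM (ratio 0.0744, 0.0677 to 0.0815). At day 2 it was spread unevenly: the median cell had 1.1 UMIs per 10000, the 90th percentile 30.1 and the highest 407. The remaining falls among the 12 largest were smaller in level: Hesx1 (3.9 and 44.0 CPM), a homeobox repressor, the lipase inhibitor Angptl4 (11.5 and 69.1 CPM), Defb42 (6.69 and 41.7 CPM) and the IGF-binding protein protease Pappa (11.3 and 50.3 CPM). Ccl1, a chemokine gene with 1 UMI at day 30 and 788 at day 2, had all of its day 2 UMIs in 0.504% of the cells. All 3 measured markers of the connecting tubule, of which S100g is one, were lower, with a sum over 6 markers of 996 CPM at day 30 and 3136 CPM at day 2, and the part of such cells or their RNA was not tested.

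The tubular injury list as a whole did not fall with these 3 genes. Of 26 measured members 8 were higher and 3, Spp1, Clu and Lcn2, were lower, and the list median was 0.30. Higher members above the myeloid level were Krt19 (196 CPM at day 30, 39.1 CPM at day 2), a keratin of simple and ductal epithelia, and Igfbp7 (2126 and 860.4 CPM), a secreted binding protein used as a marker of tubular stress. The other 6 higher members, Vim, Anxa1, Anxa3, Cp, Timp2 and Akap12, were under 2-fold above the myeloid cells. Havcr1, the classical proximal tubule injury gene, had 22 UMIs at day 30 and 101 at day 2.

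**Figure D2:**
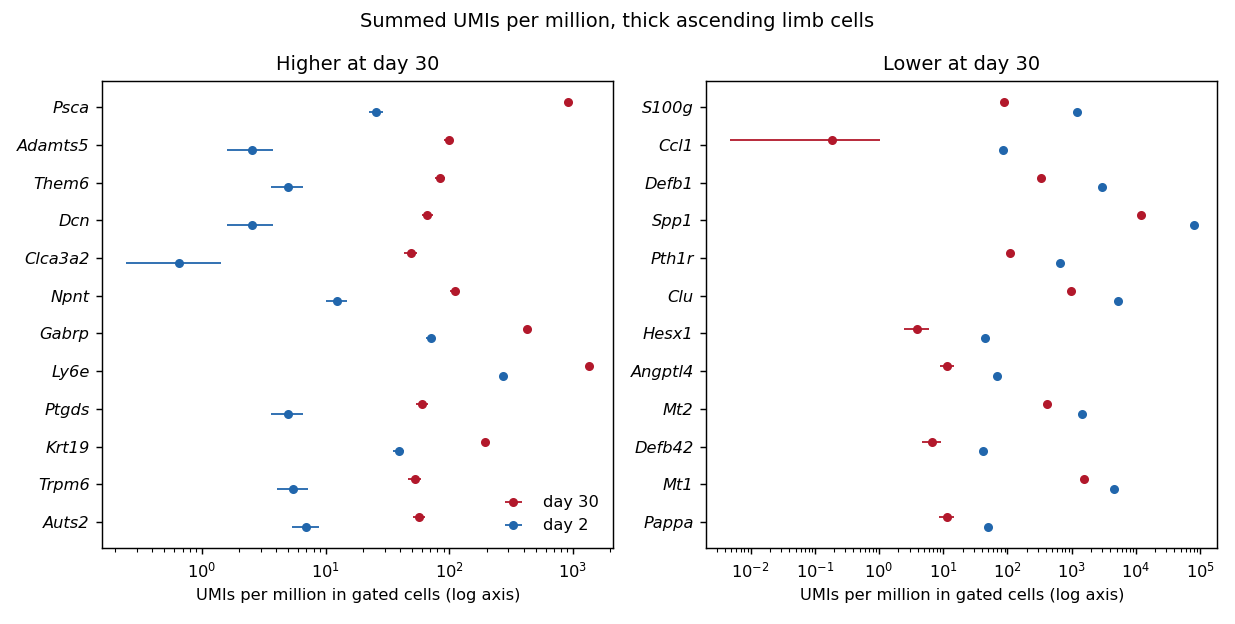
UMIs per 1000000 on a log axis for the 12 genes with the largest rise (left) and the 12 with the largest fall (right), with day 30 in red above day 2 in blue; bars are exact 95% Poisson intervals. Intervals of the 2 libraries do not overlap for any of these 24 genes, which were picked for their size of change, and the levels run from 0.186 CPM for Ccl1 at day 30 to 80293 CPM for Spp1 at day 2.

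Metallothioneins, small cysteine-rich proteins that bind zinc and copper and are induced by metals and stress, fell together. Mt1 had 1561 CPM at day 30 and 4623 CPM at day 2 (ratio 0.338, 0.33 to 0.346), and Mt2 had 407 and 1445 CPM (ratio 0.282, 0.269 to 0.295). Both are neighbours on chromosome 8. Their upstream sequences are shown because such genes are known to be driven through metal response elements, whose core letters TGCNCNC, searched on both strands, are in capitals. The 250 bases before each start are given 5′ to 3′ on the gene's strand, from RefSeq on build GRCm38.p6, at chr8:94178839-94179088 for Mt1 and chr8:94172368-94172617 for Mt2, both on the plus strand.
Mt1: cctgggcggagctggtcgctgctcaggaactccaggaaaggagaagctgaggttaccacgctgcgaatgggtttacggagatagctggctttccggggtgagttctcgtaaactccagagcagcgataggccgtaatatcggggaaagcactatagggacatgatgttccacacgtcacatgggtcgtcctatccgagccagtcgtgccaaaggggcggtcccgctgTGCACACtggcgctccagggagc
Mt2: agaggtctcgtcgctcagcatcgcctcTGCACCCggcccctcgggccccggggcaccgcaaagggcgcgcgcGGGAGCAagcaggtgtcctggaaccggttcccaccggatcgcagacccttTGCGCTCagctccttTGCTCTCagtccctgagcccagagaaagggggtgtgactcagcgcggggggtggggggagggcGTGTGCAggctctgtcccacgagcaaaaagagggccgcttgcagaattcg
Within these 250 bases Mt1 held 1 match and Mt2 held 5, and bases after the RefSeq start used were not searched. Both counts depend on the start used, so they are not a count of each gene's elements and the 2 genes are not compared. At least 1 match was present in 44.7% of 32536 promoters of the same length and at least 3 in 4.68%, and a match is a description of letters, not a site. Of 24 measured antioxidant, metal and iron genes 5 were lower and 3 higher, with a list median of -0.00496. Gclc, the rate-limiting enzyme of glutathione synthesis, was lower at 71.4 CPM at day 30 against 200.3 CPM at day 2. Acsl4, an acyl-CoA synthetase known from ferroptosis, was lower too, at 81.4 and 246 CPM.

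The 12 largest rises, ranked by the log2 ratio with 10 CPM added among genes above the myeloid level, began with Psca. Psca (GRCm38 chr15:74714839-74717069, plus strand), a GPI-anchored surface antigen of the Ly6 family that is known from urothelium and prostate, had 4901 UMIs at day 30 and 233 at day 2, or 911 CPM against 25.6 CPM (ratio 35.5, 31.1 to 40.7). After thinning, 50.2% of cells held a Psca UMI at day 30 (45.6 to 54.8) and 2.69% at day 2 (1.54 to 4.33), against 8.13% and 0.66% of myeloid cells; unthinned, the gated shares were 68.4% and 10.8%. At day 2, 67.8% of the few UMIs came from 5 cells, and at day 30 8.35% did. The uroplakin genes Upk1a, Upk1b, Upk2 and Upk3a, which define urothelium, had between 0.558 and 3.53 CPM at day 30.

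Gabrp (chr11:33550781-33578959, minus strand), the pi subunit of the GABA-A receptor, had 423 CPM at day 30 and 70.7 CPM at day 2 (ratio 5.98, 5.48 to 6.54). Its UMIs were found in 53.6% of thinned cells at day 30 and 14.5% at day 2, against 2.27% and 0.115% of myeloid cells. Ly6e, another GPI-anchored Ly6 protein that is known as interferon-inducible, had 1337 and 272 CPM (ratio 4.91, 4.69 to 5.14). It was found in 90.3% of thinned gated cells at day 30 and 39.5% at day 2, against 44.7% and 65.3% of myeloid cells, so the day 2 share was below the myeloid one and is not read as expression. At day 30 these 3 genes were present in a large share of the cells and not in a few. Them6 (84.6 CPM at day 30, 4.95 CPM at day 2) and the matrix ligand Npnt (110.2 and 12.3 CPM) were higher, as were the aggrecanase Adamts5 (99.1 and 2.53 CPM), the prostaglandin D synthase Ptgds (60.2 and 4.95 CPM) and Auts2 (57.4 and 6.93 CPM). In contrast, 2 other genes of the 12 largest rises, Dcn and Clca3a2, had 84.1% and 86.6% of their day 30 UMIs in 5 cells.

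Among 23 measured genes of failed repair and late epithelium, 9 were higher and 0 lower (7 and 0 under median scaling), with a list median of 0.56. Those above the myeloid level were Gabrp, the actin-binding tropomyosin Tpm1 (658 CPM at day 30, 229 CPM at day 2) and the matrix protease Mmp7 (39.8 and 4.4 CPM). Mmp7 rested on few cells, with 54.7% of its day 30 UMIs from 5 of them. Vcam1, an adhesion molecule used as a marker of proximal tubule cells that fail to recover, had 200.4 and 9.24 CPM, but the myeloid cells had 143 and 11.5 CPM. The complement gene C3 likewise had 90.7 and 9.68 CPM against 93.8 and 37.8 CPM in myeloid cells. How much of either came from the gated cells themselves was not tested.

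In the EGF receptor family 4 of 8 measured genes were higher and 0 lower (2 under median scaling), with a list median of 0.90. These were the ligands Egf and Nrg1 (40.3 CPM at day 30, 6.93 CPM at day 2), the receptor Egfr (30.7 and 9.9 CPM) and its feedback inhibitor Errfi1 (72.3 and 31.4 CPM, median-scaled ratio 1.94). The partner receptors Erbb2, Erbb3 and Erbb4 had 35.9, 48.1 and 77.5 CPM at day 30 against 43.6, 45.7 and 90.8 CPM at day 2, and the ligands Ereg and Epgn had 0 UMIs in both libraries. Of 15 measured proteases and inhibitors 6 were higher and 2 lower. Timp3, a matrix-bound metalloprotease inhibitor, had 855 and 249.9 CPM (ratio 3.42), and the urokinase gene Plau had 219.7 and 96.3 CPM. Plau's ratio was 2.28, and its lowest ratio over the alternative settings was 1.92, short of 2-fold. Among 11 measured Notch and Wnt genes 2 were higher, the ligands Wnt4 (41.4 and 4.73 CPM) and Jag1 (64.7 and 29.8 CPM, median-scaled ratio 1.82). The small chaperone Cryab led the heat shock list at 516 and 124 CPM, with 2 of 18 higher. Each of these 2 counts rests on 2 genes, beside 6.68% higher over all measured genes, and is not read as a result about the list.

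Immediate-early genes, transcription factors and regulators that are switched on within minutes of a stimulus and also by tissue dissociation, were higher at day 30 in 8 of 22 measured cases and lower in 0 (6 and 1 under median scaling; list median 0.85). Jun had 2236 CPM at day 30 and 769 CPM at day 2 (ratio 2.91, 2.82 to 3.00), and Atf3 had 819 and 189 CPM (ratio 4.32, 4.09 to 4.57). Fos had 2271 and 721 CPM (ratio 3.15), Fosb 455 and 98.1 CPM, and Egr1 836 and 269 CPM. In myeloid cells of the same libraries Fos had 1420.3 CPM at day 30 and 2164 CPM at day 2, and Atf3 had 439 and 247 CPM. Only 2 of the 8 higher genes were at least 2-fold above the myeloid cells, and Fos and Atf3 were not among them. In principal cells Fos had 3001 and 986 CPM, so the difference was also present in another epithelial type of these libraries, and handling of each kidney cannot be told apart from its time point. Junb (743 and 578 CPM), Dusp1 (205 and 222 CPM) and Ier3 (289 and 296 CPM) did not pass the rule.

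The 250 bases before the starts of Fos and Atf3 are shown because both are known to respond through cAMP response elements, with the core letters TGACGT, searched on both strands, in capitals. They are RefSeq sequences on GRCm38.p6, at chr12:85473640-85473889 on the plus strand for Fos and chr1:191183334-191183583 on the minus strand for Atf3.
Fos: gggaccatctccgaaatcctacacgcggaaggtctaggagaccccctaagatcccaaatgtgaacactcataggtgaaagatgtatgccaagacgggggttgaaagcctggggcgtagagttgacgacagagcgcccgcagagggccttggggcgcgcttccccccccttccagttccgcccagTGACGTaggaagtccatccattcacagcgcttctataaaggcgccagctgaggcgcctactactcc
Atf3: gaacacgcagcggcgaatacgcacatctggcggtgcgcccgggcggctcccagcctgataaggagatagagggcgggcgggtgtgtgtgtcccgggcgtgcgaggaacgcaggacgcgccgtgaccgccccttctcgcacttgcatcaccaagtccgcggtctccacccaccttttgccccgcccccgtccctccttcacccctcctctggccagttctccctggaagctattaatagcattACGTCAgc
Each held 1 match. Of 29 promoters matched to 23 genes of the immediate-early list, 9 held the letters, and 6.50% of all 32536 promoters did. The 9 belonged to Atf3, Btg2, Ccn1, Dusp1, Egr2, Fos and Maff. Of these, Fos and Atf3 were higher at day 30 and Dusp1 did not pass the rule. The calls of the others are not reported here. A link between the letters and the change in level was not tested. The 7-letter AP-1 motif TGANTCA was in 0 of the 29 and in 6.73% of all.

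**Figure D3:**
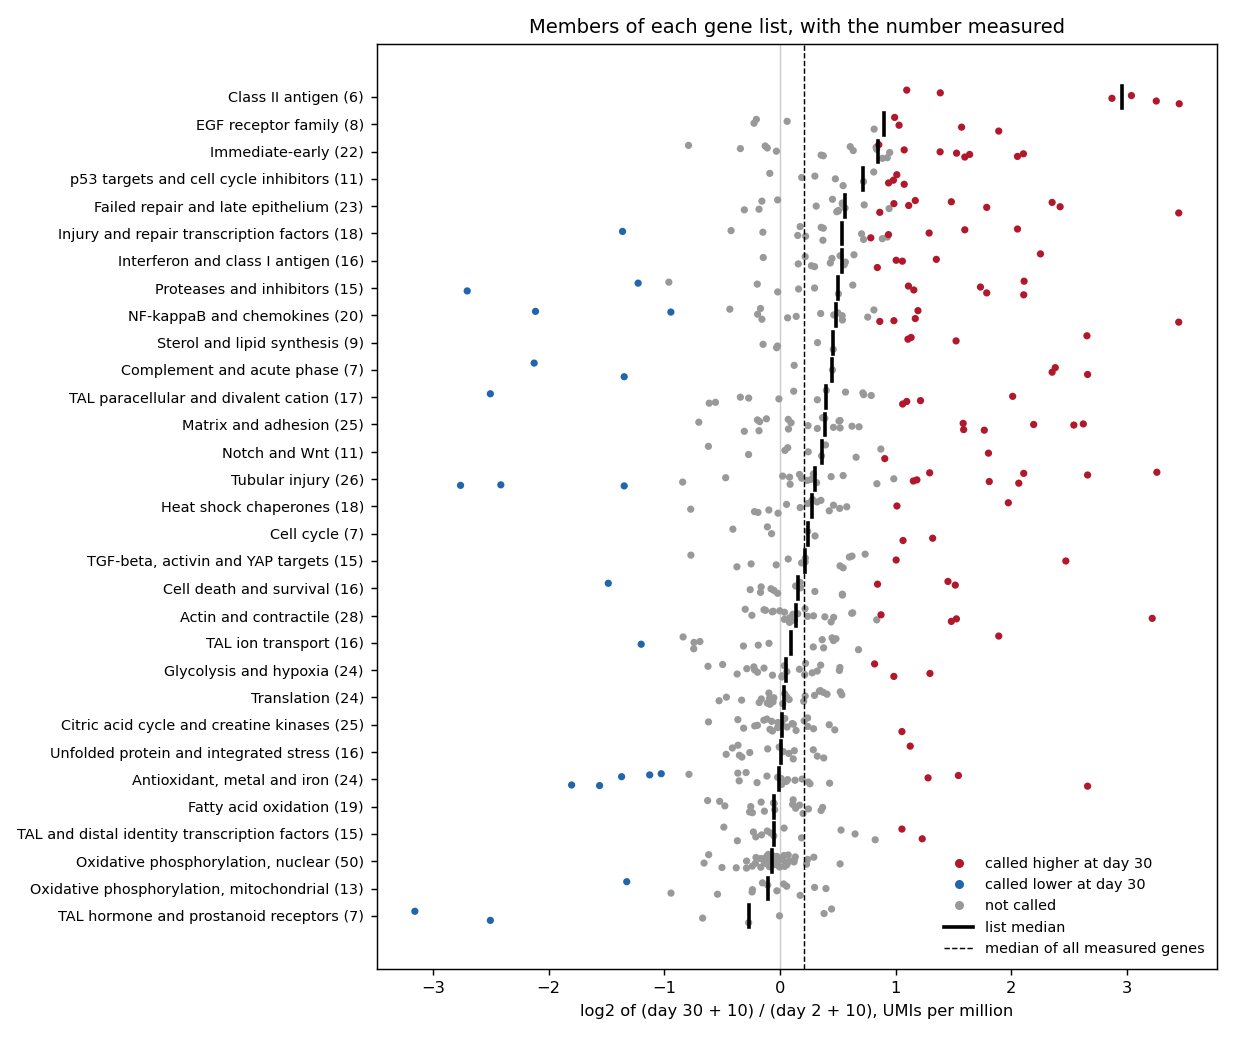
Log2 ratios of day 30 over day 2 (with 10 CPM added to both) for the measured members of 31 gene lists, ordered by their medians; points are genes, red called higher and blue called lower at day 30, black bars are list medians and the dashed line is the median of all measured genes, 0.21. Class II antigen genes lie furthest right at a median of 2.96, and respiratory chain and hormone receptor lists lie left of the dashed line.

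Energy metabolism and protein synthesis lists gave almost no calls. Over all 6179 measured genes 6.68% were higher and 1.72% lower, so few calls would be awaited in the shorter lists. Of 50 measured nuclear genes of oxidative phosphorylation 0 were called in either direction (list median -0.07), as were 0 of 19 fatty acid oxidation genes (-0.05) and 0 of 24 translation genes (0.03). Cox4i1, a subunit of cytochrome oxidase, had 977 CPM at day 30 and 1026 CPM at day 2. Relative to the median of all genes, 0.21, these lists lay slightly low. Of 13 mitochondrially encoded genes 1 was lower, mt-Atp8 at 244 and 626 CPM. Of 7 measured cell cycle genes 2, Ccnd1 and Ccnd2, were higher but under the myeloid level, while Mki67 and Top2a had 20.6 and 14.5 CPM at day 30 against 15.8 and 16.5 CPM at day 2.

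The remaining lists held fewer calls above the myeloid level. Over all measured genes 6.68% were higher, 1.72% lower, and 2.78% higher and above the myeloid level. List counts near these shares are not read as results about a list. Of 18 injury and repair transcription factors 5 were higher and 1 lower, of 11 p53 targets 4 were higher, and of 25 matrix and adhesion genes 6 were higher. Members above the myeloid level numbered 2, 1 and 1 among these higher genes. Birc2, an inhibitor of apoptosis in the cell death list (3 of 16 higher, 1 lower), had 111 CPM at day 30 and 34.2 CPM at day 2. Interferon and class I antigen genes were higher in 5 of 16 cases, and NF-kappaB and chemokine genes in 5 of 20 with 2 lower. Complement and acute phase genes were higher in 3 of 7 and lower in 2, and sterol and lipid synthesis genes were higher in 4 of 9. Counts of higher genes were 4 of 28 for actin and contractile genes, 2 of 15 for TGF-beta, activin and YAP targets, 3 of 24 for glycolysis and hypoxia, 1 of 25 for the citric acid cycle and 1 of 16 for the unfolded protein response, with 0 lower in each.

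Antigen presentation and immune genes moved with the myeloid cells of each library. All 6 measured class II antigen genes were higher. H2-Aa had 548 CPM at day 30 and 48.4 CPM at day 2 in the gated cells, against 5959 and 1536 CPM in the myeloid cells. Summed over 13 macrophage markers the gated cells had 2887 CPM at day 30 and 743 CPM at day 2, which is 5.56% and 3.71% of the myeloid sums; 7 of 8 measured markers were higher. All 7 neutrophil markers were lower: their sum was 50.6 CPM at day 30 and 3497 CPM at day 2 in the gated cells, and 273 and 33751 CPM in the myeloid cells. In principal cells H2-Aa had 479 and 78.7 CPM. The part of other cells' RNA in these differences was not tested.

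Markers of other kidney cells also moved. Fibroblast markers were higher in 4 of 4 measured cases, with Col1a1 at 67.5 CPM at day 30 and 10.8 CPM at day 2 in the gated cells and 80.1 and 37.6 CPM in myeloid cells. Proximal tubule markers were higher in 4 of 5 measured cases and lower in 1. The androgen-regulated proximal tubule gene Kap had 672 and 4.07 CPM in the gated cells and 407 and 11.2 CPM in myeloid cells, and 61.5% of its day 30 UMIs came from 5 cells. Pericyte markers were higher in 2 of 2 measured cases, thin limb markers in 2 of 3, distal convoluted tubule markers in 2 of 4 and parietal epithelium markers in 3 of 4. The measured T cell marker, Ccl5, was lower, with 52.7% of its UMIs at day 30 and 80.5% at day 2 in 5 cells, and the single measured markers of principal cells, intercalated cells and endothelium were not called. Podocyte, B cell and erythroid markers had 0 measured members, and the erythroid genes Hbb-bt and Hba-a2 were at 0 at day 30. With barcodes called as doublets left out, the ratios were 36.1 for Psca, 6.13 for Gabrp, 0.145 for Spp1 and 0.191 for Clu, and the part of mixed droplets in the marker values was not tested.

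Within the day 30 library Psca and Egf, picked after their values were seen, were seldom found in the same cell. Cells were divided by a Psca UMI after thinning, and the summed full counts were compared, as a description. The 238 cells with Psca and the 236 without it had median depths of 9502.5 and 9117.5 UMIs. Egf had 83.9 CPM in cells with Psca and 832 CPM in those without, Umod 2714 and 5016 CPM, and Slc12a1, on which the gate was set, 2205 and 3761 CPM. In the other direction Krt19 had 301 and 82.6 CPM, Gabrp 578 and 257 CPM, Clu 1299.6 and 635 CPM, and Lcn2 684 and 418 CPM. Egf and Umod were thus lower, and Krt19, Gabrp, Clu and Lcn2 higher, where Psca was found. Not all injury genes went this way: Akap12 had 80.7 CPM in cells with Psca and 166 CPM in those without, and Vcam1 had 126 and 279 CPM. In the 16 day 2 cells with Psca, Clu (2613 CPM) and Lcn2 (724 CPM) were lower than in the 579 without it (5354 and 1453 CPM). At day 30 Cldn10 (752 and 742 CPM) and Jun (2187 and 2288 CPM) were alike.

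The same division was made by Egf. Umod had 8061 CPM in the 82 day 30 cells with Egf and 2854 CPM in the other 392, Ptger3 167 and 60.1 CPM, and Spp1 7829.7 and 12736 CPM. The 132 day 2 cells with Egf had 9281 CPM of Umod, and the other 463 had 6224 CPM. Kap, the proximal tubule gene named above, was also higher in the day 30 cells with Egf, at 2079 against 348 CPM. In the division by Psca at day 30, Kap had 313 CPM with Psca and 1054 CPM without it. The part of other cells' RNA in either division was not tested. Of the 474 cells 15 held both Psca and Egf after thinning, 223 held Psca only, 67 Egf only and 169 neither. At day 2, 3 of 595 cells held both, 13 held Psca only, 129 Egf only and 450 neither. Egf then had 208 CPM in the 16 cells with Psca and 109 CPM in the 579 without it. The order seen at day 30 was therefore not seen at day 2, where few cells held Psca.

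**Figure D4:**
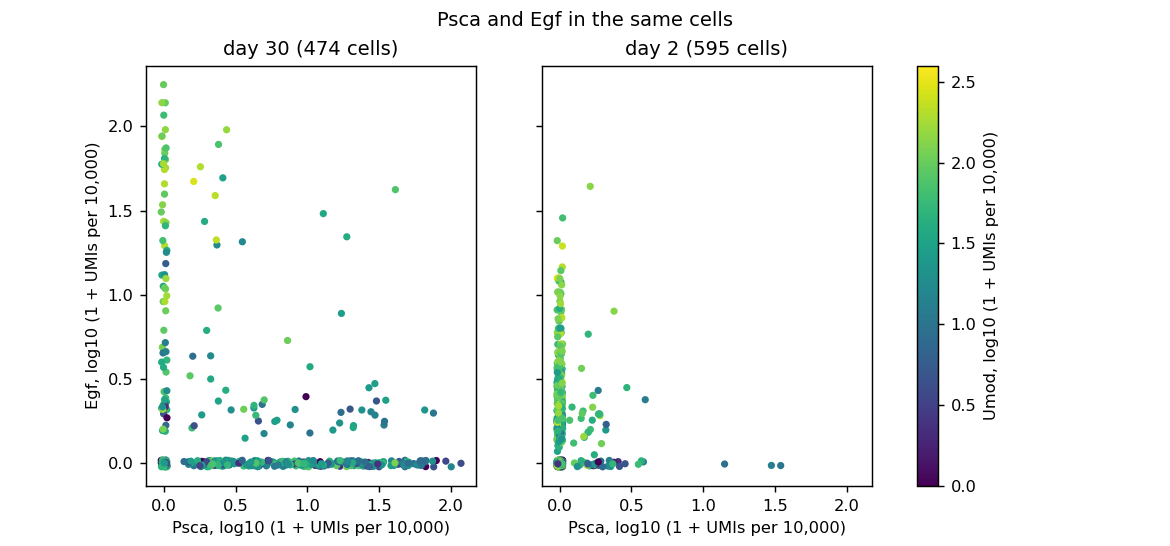
Psca (x axis) against Egf (y axis) in each gated cell, as log10 (1 + UMIs per 10000), coloured by Umod, with 474 cells at day 30 left and 595 cells at day 2 right; points are spread by a small random amount so that cells at 0 can be seen. At day 30 cells reach high values on either axis but seldom on both, and the cells high on Egf have the brighter Umod colours; at day 2 nearly all cells lie at the left edge.

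Levels at the other times place both libraries on a course. For these the threshold on Slc12a1 was 10 per 10000 in all libraries, because untreated cells at 3 to 10 had between 669.6 and 1052 CPM of Umod, against 14712 CPM above 10; this choice was made after seeing the data. It gave 679 untreated cells, 381 at day 2, 67 at day 7 and 327 at day 30. Untreated cells still held proximal tubule RNA, with 571 CPM of the phosphate transporter Slc34a1. Their library was also of lower quality. At the threshold of 3 its cells had medians of 3301 UMIs and 17.6% mitochondrially encoded UMIs, against 9422 and 6.19% at day 30. Of its 9286 barcodes 6546 were kept. How much this shifts the untreated levels was not tested. Spp1 had 3224 CPM untreated, 71698 CPM at day 2, 37791 CPM at day 7 and 10989 CPM at day 30, and Clu had 54.0, 4245, 1536 and 787 CPM. Both peaked at day 2 and at day 30 lay above the untreated library. Mt1 had 1594, 3916, 2209.9 and 1643 CPM, so its day 30 level was close to the untreated one. Defb1 (452, 2351, 879 and 324 CPM) and S100g (256, 1542, 583 and 98.3 CPM) ended below it.

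Segment genes that were high in untreated cells were not all back at day 30. Umod had 14712 CPM untreated, 7450.1 CPM at day 2, 7438 CPM at day 7 and 4985 CPM at day 30, the lowest of the 4. Egf had 3475, 156, 152 and 613 CPM, and Cldn10 had 1417, 415, 607 and 879 CPM. Egf and Cldn10 thus rose between days 2 and 30 without reaching the untreated level. Tmem207 (185, 8.71, 19.4 and 22.4 CPM) and Ptger3 (331, 75.9, 105 and 98.9 CPM) stayed low at day 30.

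Several of the higher genes increased step by step over time. Gabrp had 12.6 CPM untreated, 71.8 CPM at day 2, 171 CPM at day 7 and 425 CPM at day 30. Ly6e had 107, 300.3, 725 and 1345 CPM, and Krt19 26.3, 48.4, 78.6 and 168 CPM. Psca had 45.3, 29.4, 169 and 669 CPM, so that its day 2 level was the lowest. Tpm1 (86.9, 220.4, 541 and 618 CPM) and Cldn3 (29.3, 170.4, 284 and 363 CPM) followed the same order, and Jun had 272, 737, 992 and 2366 CPM. At each step only 1 library stood behind a value, and the day 7 library held only cells of at least 18362 UMIs.

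**Figure D5:**
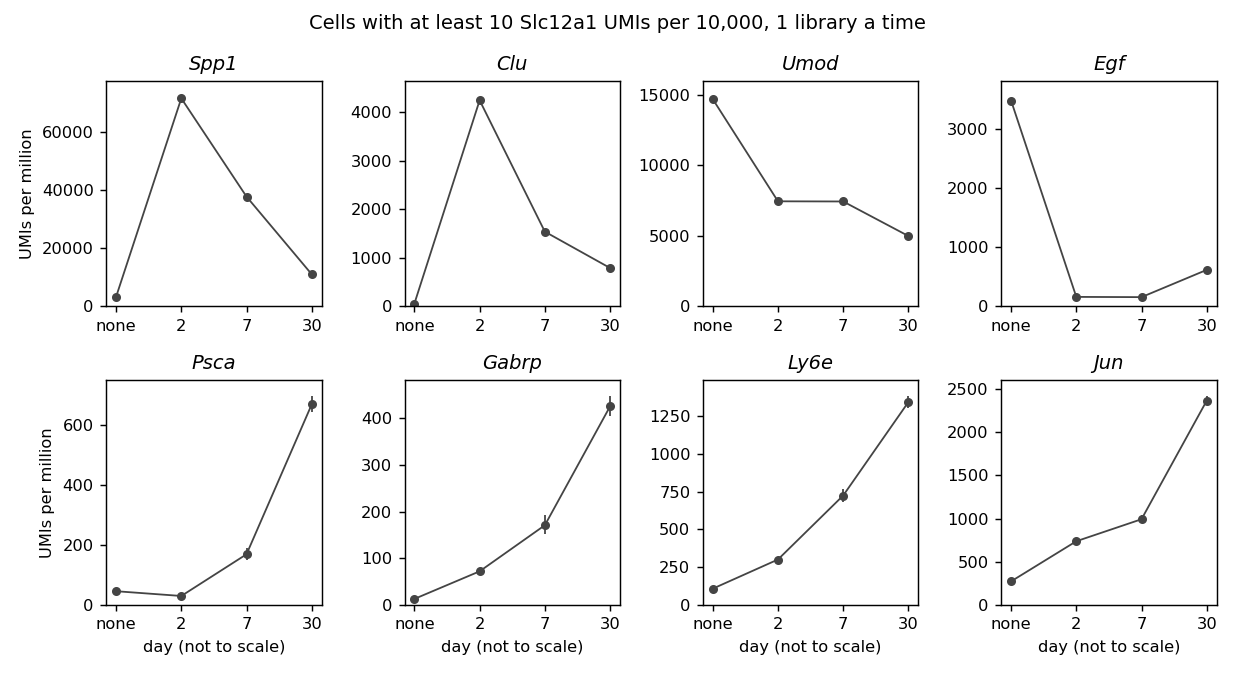
UMIs per 1000000 in cells with at least 10 Slc12a1 UMIs per 10000, in the untreated library (none) and at days 2, 7 and 30, for 8 genes; bars are exact 95% Poisson intervals and the y axes start at 0. Spp1 and Clu peak at day 2, Umod is lowest at day 30, Egf is lowest at days 2 and 7, and Psca, Gabrp, Ly6e and Jun are highest at day 30.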

How the data were processed

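Single-cell RNA of GFP-sorted kidney cells from BAC-CluGFP mice was measured in 4 libraries, 1 per time. The deposited matrices hold raw counts of UMIs per gene and barcode, not normalized. Cell Ranger 7.0.1 and build mm10 are named in the submitters' processing notes, and version 3.0.1 in the matrix headers. How barcodes were kept was not stated. Barcodes were filtered and gated as the report states, and doublets were kept. UMIs were summed over gated cells and scaled to 1000000 (CPM). Genes with a mean of at least 20 CPM were compared, gate genes left out, with a pseudocount of 10 CPM in log2 ratios. Intervals are exact at 95% (Poisson, conditional binomial for ratios, Clopper-Pearson for shares). The ratio code was tested on simulated counts. Shares were compared after thinning cells to 3000 UMIs; all gated cells were deeper, so 0 were left out. The gate, the 31 gene lists, the 19 marker lists and the rule for named genes were chosen with earlier results of these data known. Named genes are the 12 largest called rises and the 12 largest called falls at least 2-fold above myeloid cells, up to 4 called genes of each list that pass the same condition, all segment markers, Clu, and genes whose role a result turns on. In the lists, genes outside that rule (such as Vcam1, C3, Kap, H2-Aa, Cldn14 and Nos1) were chosen after their values were seen, as were Psca and Egf for the divisions of cells. Gene positions are from GENCODE M21 on GRCm38, found for 27722 of 27998 genes; promoters are from RefSeq, found for 47 of 71 named genes. Values of some genes are not reported here. In all, 13 alternatives were planned and 5 were added after the data were seen. Python 3.11.15, numpy, scipy, pandas and scanpy were used.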

Additional observations from a re-analysis of the deposited data

Results flagged for a closer look

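Between thick ascending limb cells and principal cells of the collecting duct (86 cells at day 30, 314 at day 2), 11 genes were called in opposite directions. Of 5709 genes measured in both, 335 were higher and 78 lower in thick ascending limb cells. Among these, 106 were higher in both types and 41 lower in both, against 8 and 3 that went opposite ways. Principal cells had 357 higher and 155 lower among their 6330 measured genes. The 8 were among 335 genes, beside 155 lower of 6330 in principal cells. The 3 were among 78, beside 357 higher of 6330. Whether 8 and 3 differ from what unrelated calls in the 2 cell types would give was not tested. The 11 genes are therefore listed as a description and not read as opposite movement of the cell types. The difference between the cell types was not tested, since each time had 1 library, and all values are ratios of day 30 over day 2. Krt19, the ductal keratin, had a ratio of 5.00 in thick ascending limb cells and 0.195 in principal cells. Its levels were 196 and 39.1 CPM in the first and 69.2 and 355 CPM in the principal cells, so the order of the cell types differed between the times. Cldn4 had ratios of 2.79 and 0.452, and Cldn3, also a claudin, had 2.21 and 0.407. Plet1, a surface protein, had 3.28 and 0.330, Bok, of the BCL2 family, had 4.69 and 0.440, and Rhpn2 had 2.47 and 0.458. Cdkn1a, the cell cycle inhibitor p21, had 2.01 and 0.469, and Ddx58, the RNA sensor RIG-I, had 2.46 and 0.471. None of these ratios is median-scaled, and 2.01 lies at the edge of the 2-fold rule. In the other direction the chemokine Ccl5 had 0.388 in thick ascending limb cells and 23.1 in principal cells, with 52.7% of its UMIs in thick ascending limb cells at day 30 and 80.5% at day 2 in 5 cells, Aldh1l1 had 0.416 and 3.62, and Pappa had 0.225 and 2.61.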

How the results depend on the processing

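With the threshold or correction changed, the count of genes higher at day 30 (413) and lower at day 30 (106) ran as follows. Scaling by the median ratio gave 194 higher and 161 lower. A minimum of 5 CPM gave 1122 and 241 and a minimum of 100 CPM gave 81 and 39, with 10411 and 1471 genes eligible instead of 6179. A stricter fold of 4 gave 87 and 28. With 30% of each library's mean profile subtracted as free RNA 667 were higher; the cause was not tested. Other alternatives kept both counts within 1.5 times. Among those chosen after seeing the data, scaling without Spp1 gave 330 and 128, and cells with more Cldn16 and Cldn19 than Cldn10 gave 612 and 110. For 58 named called genes 803 of 804 recomputed ratios kept their direction and 771 stayed past 2-fold, 44 genes doing so throughout. The exception was Ccl20, at 1.05 among cells with more Cldn10; the cause was not tested. No paired analysis was possible because each time had 1 library, and for the same reason no replicate could be left out. Depth limits genes under 20 CPM, which stand outside the calls.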

Other observations

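Psca lies on chromosome 15 in a cluster of genes for small GPI-anchored and secreted proteins of the Ly6 family, and several of its neighbours had higher levels at day 30 as well. The stretch and its limits were picked after the values were seen. Of 20 genes in the 334 kb between Psca and Ly6c1, 12 had at least 10 UMIs, and 8 of these had a ratio of at least 2 with an interval above 1, as did 15.8% of 13833 genes of all chromosomes with at least 10 UMIs. Besides Psca (35.5), Them6 (17.1) and Ly6e (4.91), Lynx1, a modulator of nicotinic receptors, had 55.2 CPM at day 30 and 10.9 CPM at day 2 (ratio 5.07). Slurp1 (10.0 and 2.75 CPM), Ly6d (14.3 and 5.83 CPM) and Ly6k (7.25 and 3.41 CPM) were too low for the calls, as was Lypd2 with 44 UMIs at day 30 and 3 at day 2 (ratio 24.8, 7.94 to 125). Ly6a, the stem cell antigen Sca-1, had 4593 and 3273 CPM and Ly6c1 had 179.9 and 128 CPM, both with a ratio of 1.40 and neither called.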
